A study of Mus musculus with 10 samples.

Results

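Rab proteins are small GTPases that mark the membranes of the secretory and endocytic pathways. Loaded with GTP by an exchange factor, a Rab sits on its membrane through prenyl tails and recruits effectors such as tethers and motor adaptors. A GTPase-activating protein then switches it off, and GDP dissociation inhibitor takes it back to the cytosol. In mouse oocytes, vesicles carrying Rab11a are known to organise the cytoplasmic actin network along which vesicles and the meiotic spindle move to the cortex, and Rab3a is known for its part in the release of cortical granules. The genes described here are those whose symbol on the platform is Rab followed by a number and at most a letter and a digit. 59 such genes of 18193 with a probe set of their own were found, on 132 probe sets, and each was represented by its probe set with the highest mean log2 intensity over all arrays.

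Transcript levels were measured on 10 one-colour arrays of RNA from mouse oocytes in metaphase II (MII), the stage at which ovulated eggs wait for sperm. All oocytes came from B6D2F1 females, a hybrid of C57BL/6 and DBA/2, given equine chorionic gonadotropin and 48 h later 5 IU of human chorionic gonadotropin, and were collected 16 h after that and freed of cumulus cells. The spindle-chromosome complex (SCC, 3 arrays) was removed by microsurgery and holds the spindle, the chromosomes and the material around them. The cytoplast (4 arrays) is the oocyte left after that removal, and the MII oocyte (3 arrays) was kept intact. The titles call the arrays biological replicates, but no label says which animals or pools they came from. A p-value here therefore weighs a difference against the variation among arrays alone, which may be technical in part. A fixed mass of amplified RNA went onto each array, so an intensity is a relative amount within a sample and not an amount per oocyte. Fewer copies in a compartment and less of that compartment's total RNA cannot be told apart.

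Median intensity was between 15.6 and 16.6 on all arrays. To judge whether a transcript was detected, each array was given a background level, the 95th percentile of 36 genes known from unrelated tissues, which lay between an intensity of 91.5 and 159.7. It was 97.1, 126.9 and 159.7 on SCC arrays 1 to 3 and between 95.8 and 108.3 on the cytoplast arrays. Not all 36 genes were silent: Cpa1 read 2697 to 7441 and was above the level on all 10 arrays. On SCC replicate 3, Krt10 and Mbp read 197.5 and 148.7. Of 18 oocyte markers, 14 or 15 were above background on every array, and of 21 cumulus and granulosa cell markers none or 1 (Nr5a2) was. The cumulus markers summed to an intensity of 590 to 707 in the SCC against 591 to 694 in the cytoplast. The 95th percentile of all intensities was 623 to 797 in the SCC against 526 to 634 in the cytoplast, and the 3′ beta-actin control exceeded the 5′ one by a log2 value of 3.27 to 3.65 in the SCC against 3.66 to 5.29 in the cytoplast. The part of these array measures in the results below was not tested.

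Of the 59 Rab genes, 46 passed the filter on dim probe sets, which asks that 3 or more arrays exceed their own median intensity. 19 were above background on all 10 arrays, 4 on some (Rab12, Rab22a, Rab27a and Rab35) and 36 on none. Because 3 bright arrays are enough, a gene could pass the filter through 1 group. The 19 fell into 5 of the 6 role groups: Rab2a, Rab2b, Rab6a, Rab18 and Rab33b of the endoplasmic reticulum and Golgi, Rab4a, Rab5a, Rab14, Rab21 and Rab31 of early endosomes, Rab8b, Rab10, Rab11a and Rab23 of recycling, polarised delivery and cilia, Rab7, Rab9 and Rab38 of late endosomes and lysosome-related organelles, and Rab3a and Rab3d of regulated exocytosis. Those of Rab2a, Rab3a, Rab4a, Rab6a, Rab14 and Rab38 rest on probe sets of a kind (_s_at or _x_at) whose probes can match other transcripts. The group left over, Rab40b, Rab40c and Rab44, held no gene above background on any array. The 13 genes that did not pass the filter, among them Rab27b, Rab37, Rab33a and Rab6b, stayed between 5.35 and 20.5 on every array.

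The SCC was compared with the cytoplast to ask whether transcripts are concentrated at the spindle. Rab11a, Rab8b, Rab2a and Rab21 were higher in the SCC, by 1.41-fold to 2.29-fold, and Rab27a was lower. These were 5 of the 46 Rab genes tested (10.9%), 4 higher (8.7%) and 1 lower (2.17%). Of all 12710 genes tested, 8.3% passed, 8.03% higher and 0.275% lower, so the share of Rab genes that rose was close to that of all genes. The median log2 difference was -0.0025 over the 46 Rab genes and 0.02 over all genes tested. At an unadjusted p under 0.05 there were 13, beside 22.3% of all genes. With no overlap between arrays, 9 Rab genes were higher and 5 lower, beside 15.5% and 5.86% of all genes.

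**Figure D1:**
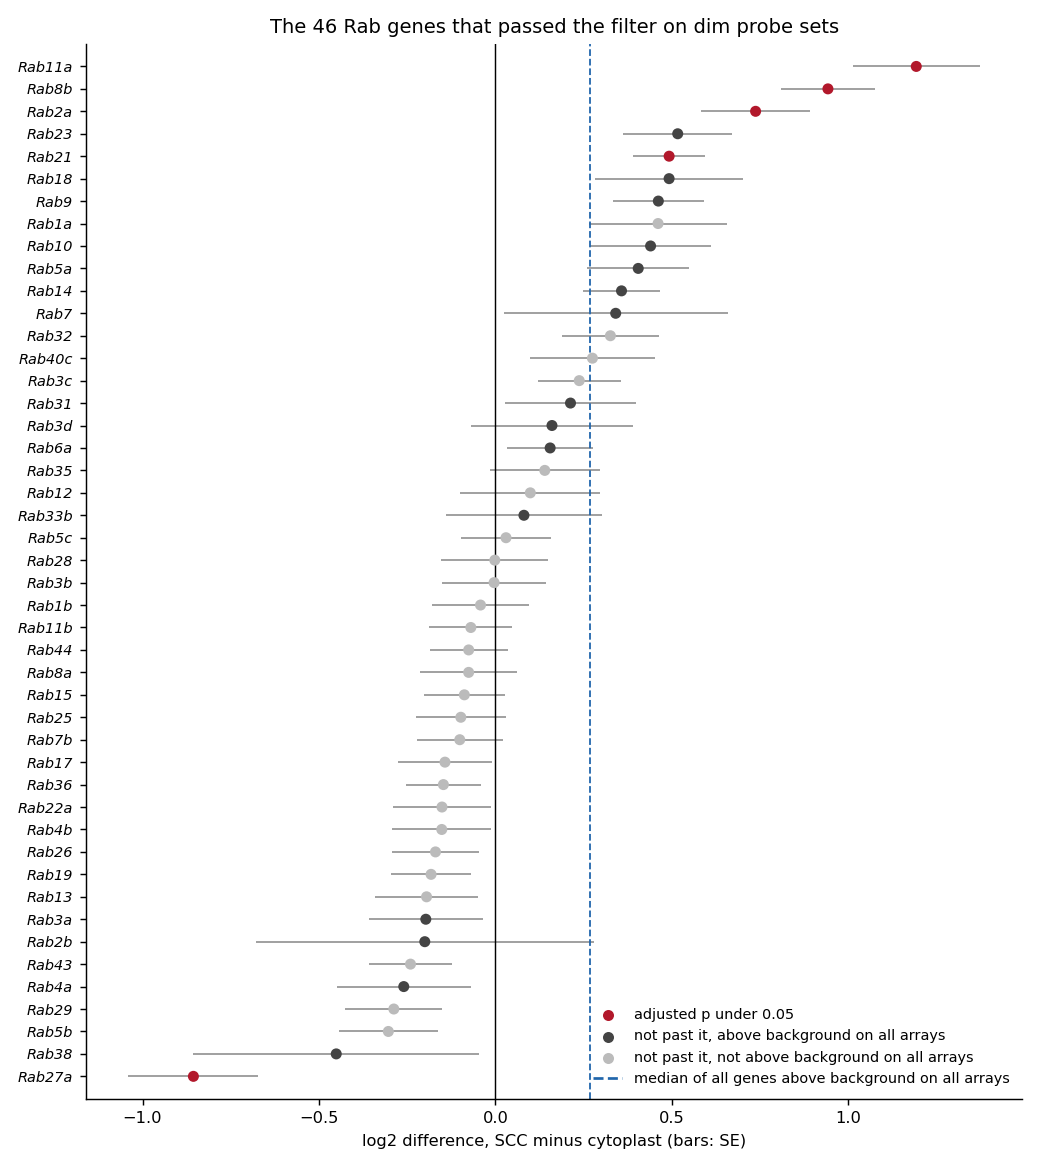
Log2 difference between the SCC and the cytoplast (horizontal axis, with its standard error) for the 46 Rab genes that passed the filter. Rab11a (1.19), Rab8b (0.94), Rab2a (0.74) and Rab21 (0.49) lie to the right and Rab27a (-0.86) to the left in red; the dashed line is the median of all genes above background on every array (0.27).

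Rab11a, the GTPase of recycling endosomes, had the largest difference of the 46. Its intensity was 718.2, 933.3 and 976.4 on SCC arrays 1 to 3, and 349.4, 300.7, 400.8 and 493.8 on cytoplast arrays 1 to 4. MII oocyte arrays 2 to 4 gave 410.3, 543.3 and 486.5. Every SCC array lay above every array of both other groups, while the cytoplast and MII oocyte overlapped. Rab11a was 2.29-fold higher in the SCC (876 ± 138 against 386.1 ± 82.6, SD, n = 3 and 4; log2 difference 1.19, SE 0.18, adjusted p = 0.00576). The second Rab11a probe set, stood at 479.8 ± 66.2 in the SCC against 238.5 ± 24.5 in the cytoplast (log2 1.0, SE 0.13, adjusted p = 0.00373). Rab11a passed in all 22 alternative analyses, with a log2 difference of 0.89 to 1.33 and an adjusted p of 0.0017 to 0.0408. The alternative that set aside _x_at and _s_at probe sets could not change this call, as Rab11a has none. Its close relative Rab11b was not above background on any array and did not pass (19.1 ± 1.79 in the SCC, 20.0 ± 1.77 in the cytoplast, log2 -0.07, SE 0.12, adjusted p = 0.813).

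Rab8b, of the Rab8 pair that delivers vesicles from the trans-Golgi network and recycling endosomes to the cell surface, followed. It read 1223, 1574 and 1235 on SCC arrays 1 to 3, 686.9, 693.7, 733.6 and 664.7 on cytoplast arrays 1 to 4, and 784.7, 1037 and 940.2 on MII oocyte arrays 2 to 4. The 3 groups did not overlap, the MII oocyte lying between the other two. Rab8b was 1.92-fold higher in the SCC (log2 0.94, SE 0.13, adjusted p = 0.00464) and passed whichever array was left out. After the arrays were rescaled it missed the threshold, with log2 0.68 after cyclic loess (adjusted p = 0.055) and 0.63 after quantile normalization (adjusted p = 0.0786). The other Rab8b probe set did not pass the filter on dim probe sets (13.15 in the SCC, 14.65 in the cytoplast). Rab8a, the other gene of the pair, was not above background on any array (log2 -0.08, SE 0.14, adjusted p = 0.828). Rab10, a relative of Rab8 in polarised exocytosis, stood at 1423 ± 227 in the SCC against 1053 ± 193 in the cytoplast (log2 0.44, SE 0.17, adjusted p = 0.169), with overlapping arrays.

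**Figure D2:**
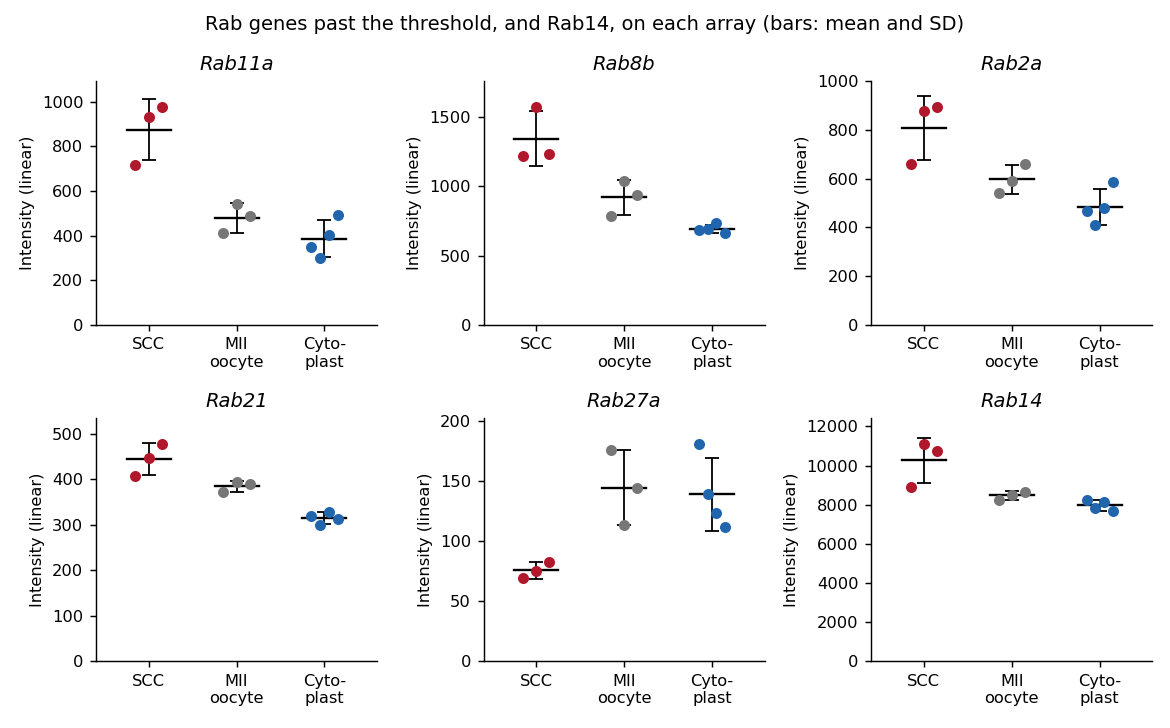
Intensity on a linear scale (vertical axis) on each array for the 5 Rab genes past the threshold between the SCC and the cytoplast, and for Rab14, which did not pass. Points are arrays, and the bars give the mean and SD of 3 SCC, 3 MII oocyte and 4 cytoplast arrays. For Rab11a, Rab8b, Rab21 and Rab14 all SCC points lie above all others, and for Rab27a all 3 lie below.

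The remaining genes of recycling, polarity and cilia differed less. Rab23, a regulator of Hedgehog signalling, was at 425.2, 634.9 and 645.3 on the SCC arrays and between 367.6 and 413.7 on the cytoplast arrays. The groups did not overlap, yet it did not pass (log2 0.52, SE 0.15, adjusted p = 0.0698). Without SCC replicate 1, its dimmest SCC array, its adjusted p was 0.0113. It passed in only 2 of the 22 alternatives, with a log2 difference of 0.2 to 0.71 and an adjusted p of up to 0.4. The other Rab23 probe set that passed the filter was above background on no array (log2 -0.01, SE 0.17, adjusted p = 0.982). Rab35, which acts in endosomal recycling and cytokinesis, was above background on 6 of the 10 arrays and stood at 120.1 ± 12.5 in the SCC against 109.0 ± 11.3 in the cytoplast (log2 0.14, SE 0.16, adjusted p = 0.698). Of the 12 genes of this role, all of which passed the filter, 2 were called (16.7%). Of all genes 8.3% were called, and of those above background on all arrays 19.7%. The median log2 difference of the 12 was -0.04. The other members of the role that were not above background on any array, Rab13, Rab15, Rab17, Rab25 and Rab28 among them, had log2 differences from -0.19 to -0.0015. Of these, Rab17 was lower on every SCC array than on every cytoplast array (log2 -0.14, SE 0.13, adjusted p = 0.63).

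Among genes of the endoplasmic reticulum and Golgi, Rab2a was called. Rab2a, a GTPase of traffic between these organelles, was at 658.8, 877.8 and 894.2 on SCC arrays 1 to 3 and 467.2, 409.3, 478.6 and 586.3 on cytoplast arrays 1 to 4. The MII oocyte arrays gave 542.5, 588.6 and 661.3, and reached just into the SCC range. Rab2a was 1.67-fold higher in the SCC (log2 0.74, SE 0.15, adjusted p = 0.0174). Leaving out 1 array at a time kept the log2 difference between 0.66 and 0.88, but the adjusted p was 0.0585 without cytoplast replicate 1, 0.0563 without cytoplast replicate 2, 0.0936 without SCC replicate 2 and 0.0981 without SCC replicate 3. It missed the threshold after cyclic loess (log2 0.49, adjusted p = 0.0524) and quantile normalization (log2 0.42, adjusted p = 0.0821).

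The probe sets of Rab2a differed in size. The one that stands for the gene is an _s_at probe set. Of the 3 others above background on all arrays, 1 passed (318.8 ± 54.5 in the SCC, 159.7 ± 13.2 in the cytoplast, log2 0.99, SE 0.2, adjusted p = 0.0153), 1 had a like difference with wide spread (292.2 ± 239 against 145.5 ± 24.7, log2 0.73, SE 0.4, adjusted p = 0.359) and 1 did not pass (458.8 against 397.4, log2 0.21, SE 0.13, adjusted p = 0.413). The last is also the brightest Rab2a probe set of another kind. Rab2b, a paralogue, had no settled direction (260.7 ± 31.7 in the SCC, 338.7 ± 212 in the cytoplast, log2 -0.2, SE 0.48, adjusted p = 0.877).

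Rab6a, of retrograde traffic to and within the Golgi and read here by an _x_at probe set, stood at 3770 ± 240 in the SCC against 3390 ± 294 in the cytoplast (log2 0.16, SE 0.12, adjusted p = 0.55), and its sign turned after cyclic loess (-0.16) and quantile normalization (-0.09). Rab18, found on the endoplasmic reticulum and lipid droplets, was at 208.5 ± 31.0 and 149.5 ± 30.1 (log2 0.49, SE 0.21, adjusted p = 0.211). Rab33b, of the Golgi and autophagy, had a log2 difference of 0.08 (SE 0.22). Rab1a and Rab1b, which drive transport from the endoplasmic reticulum to the Golgi, were not above background on any array. Rab19 and Rab43, also not above background, were lower on every SCC array than on every cytoplast array and did not pass (log2 -0.18 and -0.24, SE 0.11 and 0.12, adjusted p = 0.424 and 0.28). Rab1a was at 73.7, 77.9 and 60.2 in the SCC against between 45.3 and 57.5 in the cytoplast, without overlap (log2 0.46, SE 0.2, adjusted p = 0.209). Of the 16 genes of this role 10 passed the filter, and their median log2 difference was 0.02.

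Among early endosome genes, Rab21, which acts in the uptake of integrins, was called. It read 407.9, 446.6 and 477.6 on SCC arrays 1 to 3, 320, 299.4, 328.5 and 312.4 on cytoplast arrays 1 to 4, and 371, 394.4 and 389.1 on MII oocyte arrays 2 to 4. The 3 groups did not overlap, and the spread within each was small. Rab21 was 1.41-fold higher in the SCC (log2 0.49, SE 0.1, adjusted p = 0.0172). It missed the threshold after cyclic loess (log2 0.26, adjusted p = 0.19) and quantile normalization (log2 0.18, adjusted p = 0.363). Without cytoplast replicate 1 or 2 or SCC replicate 2 or 3 the adjusted p was 0.0528, 0.0558, 0.0827 and 0.091, while the log2 difference stayed between 0.44 and 0.55 whichever array was left out. The other Rab21 probe set was above background on no array and was not called (log2 0.41, SE 0.2, adjusted p = 0.29). On the median over its probe sets Rab21 was not called.

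Rab14, which works between the trans-Golgi network and early endosomes, read 8923, 11110 and 10750 on the SCC arrays and 8248, 7837, 8156 and 7659 on the cytoplast arrays. All SCC arrays were above all cytoplast arrays, but the difference did not pass (log2 0.36, SE 0.11, adjusted p = 0.0755). Without SCC replicate 1, its dimmest SCC array, it did (adjusted p = 0.0324). It passed in only 2 of the 22 alternatives, with a log2 difference of 0.02 to 0.46 and an adjusted p of up to 0.96. 4 further Rab14 probe sets that passed the filter had log2 differences from 0.29 to 0.56, none of them called. Rab5a, which directs fusion of early endosomes, was at 618.9 ± 91.9 in the SCC against 467 ± 63 in the cytoplast (log2 0.41, SE 0.14, adjusted p = 0.127). Its paralogues Rab5b (log2 -0.3, SE 0.14, adjusted p = 0.255) and Rab5c (log2 0.03, SE 0.13, adjusted p = 0.937) were not above background on any array. Rab4a, of rapid recycling, and Rab31 had log2 differences of -0.26 (SE 0.19) and 0.21 (SE 0.19). The median over the 9 early endosome genes that passed the filter was 0.03.

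**Figure D3:**
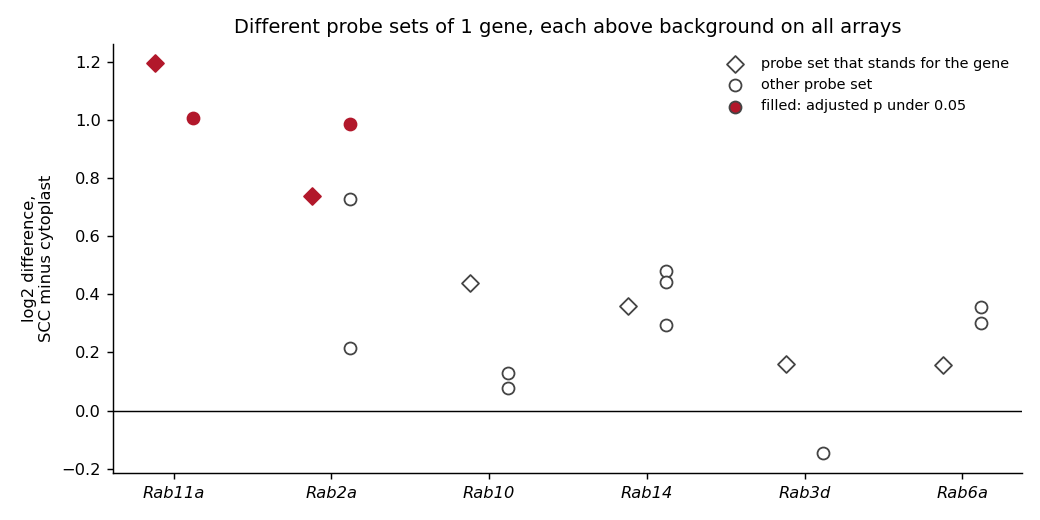
Log2 difference between the SCC and the cytoplast (vertical axis) for each probe set of the 6 Rab genes with more than 1 probe set above background on all arrays. Diamonds stand for the gene in the text and filled symbols passed the threshold; both Rab11a probe sets lie at or above 1.0, while those of Rab2a reach from 0.21 to 0.99.

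No gene of late endosomes and lysosomes passed. Rab9, which returns receptors from late endosomes to the Golgi, came nearest. It was at 1327, 1708 and 1694 on the SCC arrays and between 1018 and 1265 on the cytoplast arrays, without overlap (log2 0.46, SE 0.13, adjusted p = 0.0526), and its adjusted p ranged from 0.0229 to 0.464 over the alternatives, 7 of which called it. Rab7, which directs late endosomes to lysosomes, varied widely in the cytoplast, from 1097 to 2848, and its SCC arrays of 1743 to 2350 fell within that range (log2 0.34, SE 0.32, adjusted p = 0.628). Rab38, of lysosome-related organelles, was at 239 ± 43.7 in the SCC against 353.9 ± 166 in the cytoplast (log2 -0.45, SE 0.4, adjusted p = 0.613). Its other probe set was above background on no array and had the opposite sign (67.4 in the SCC, 58.8 in the cytoplast, log2 0.2, SE 0.13, adjusted p = 0.459). Rab29 did not overlap between the groups (log2 -0.29, adjusted p = 0.273) but was not above background on any array.

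Regulated exocytosis held the Rab gene that was lower in the SCC. Rab27a, known for the docking of melanosomes and secretory lysosomes, read 69.1, 75.4 and 82.9 on SCC arrays 1 to 3, below background on each. On cytoplast arrays 1 to 4 it read 181.1, 139.5, 123.9 and 111.9, and on MII oocyte arrays 2 to 4 it read 176.1, 113.4 and 144, above background on all 7. It was at least 1.09-fold lower in the SCC, with SCC arrays set to the background level (measured log2 difference -0.86, SE 0.18, adjusted p = 0.0198). The call held after cyclic loess (log2 -0.98, adjusted p = 0.0195) and quantile normalization (log2 -1.01, adjusted p = 0.0192). Without cytoplast replicate 1 or 2 or SCC replicate 2 or 3 the adjusted p was 0.0569, 0.0595, 0.0878 and 0.0706, while the log2 difference stayed between -0.95 and -0.72 whichever array was left out. Over all 22 alternatives it lay between -1.01 and -0.52. The other Rab27a probe set that passed the filter was above background on no array and was not called (16.4 in the SCC, 18.6 in the cytoplast, log2 -0.18, SE 0.11, adjusted p = 0.428).

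The other exocytosis genes did not pass. Rab3a was at 876.4, 968.7 and 604.8 on the SCC arrays and between 812.6 and 1005 on the cytoplast arrays, with overlap (log2 -0.2, SE 0.16, adjusted p = 0.57). This is an _x_at probe set, and the other Rab3a probe set was not above background on any array (50.7 in the SCC against 49.7 in the cytoplast). Rab3d, of secretory granules, stood at 1650 ± 226 and 1498 ± 363 (log2 0.16, SE 0.23, adjusted p = 0.774), and its second bright probe set had the opposite sign (log2 -0.15). Rab3b, Rab3c and Rab26 were not above background on any array. Of these, Rab3c was higher on every SCC array than on every cytoplast array (log2 0.24, SE 0.12, adjusted p = 0.291).

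**Figure D4:**
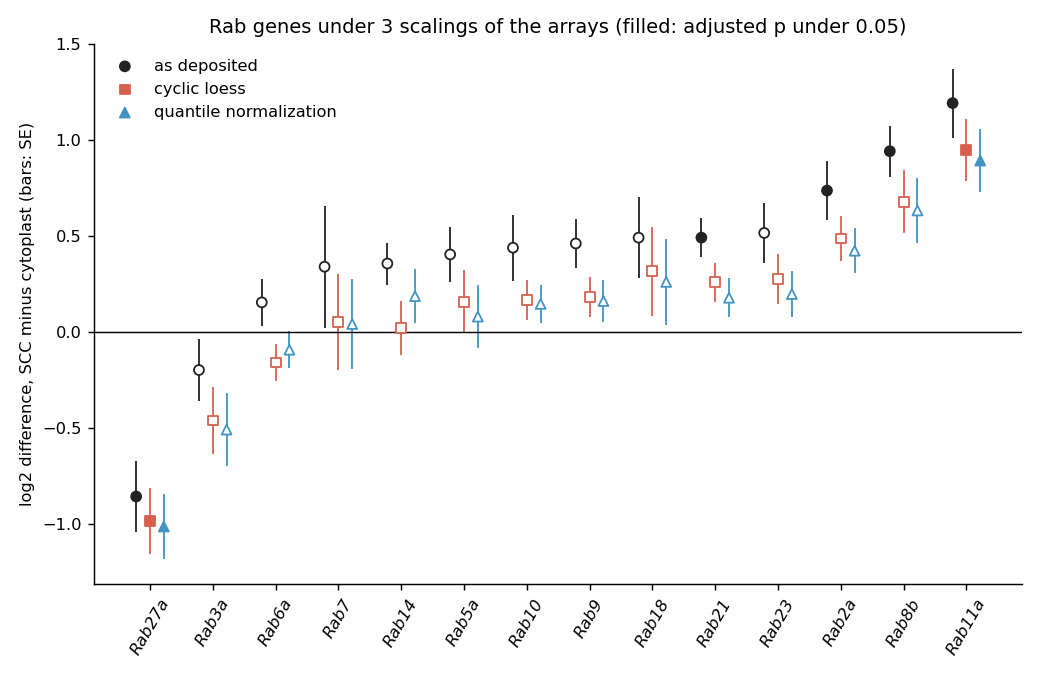
Log2 difference between the SCC and the cytoplast (vertical axis, with its standard error) of 14 named Rab genes above background on at least 7 arrays, under 3 scalings of the arrays. Filled symbols passed the threshold: Rab11a and Rab27a did so under all 3, and Rab21, Rab2a and Rab8b only on the values as deposited.

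Bright genes in general stood higher in the SCC on the values as deposited, and the Rab genes were read against that. Of the 3613 genes above background on all arrays, 77.5% had a positive difference, the median was 0.27 and 19.7% passed. Of the 19 Rab genes above background on all arrays, 15 had a positive difference, the median was 0.36 and 4 passed. After cyclic loess the medians were 0.02 for all such genes and 0.05 for the Rab genes, of which 1 passed, beside 5.92% of all. After quantile normalization they were -0.0017 and 0.08, and again 1 Rab gene passed, beside 5.67% of all. That gene was Rab11a in both cases.

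Against the intact MII oocyte, no Rab gene passed in the SCC by the limma test (6 of 46 at an unadjusted p under 0.05, beside 13.3% of all genes), where 0.0472% of all genes passed. Rab11a was 1.82-fold higher in the SCC than in the MII oocyte (480.1 ± 66.7 in the latter; log2 0.86, SE 0.19, adjusted p = 0.114), without overlap. Rab8b was 1.46-fold higher (log2 0.55, SE 0.14, adjusted p = 0.156) and Rab27a at least 1.14-fold lower (log2 -0.91, SE 0.2, adjusted p = 0.109), again without overlap. All 3 passed without MII oocyte replicate 3 (adjusted p = 0.0384, 0.0486 and 0.0259). The share of all genes that passed without that array was not counted. None of the 3 passed when any other single array was left out. Without MII oocyte replicate 2 the adjusted p was 0.45 for Rab11a, 0.551 for Rab8b and 0.419 for Rab27a. Rab14 (log2 0.27, adjusted p = 0.384) and Rab21 (log2 0.2, adjusted p = 0.504) also had no overlap and did not pass. In all, 5 Rab genes lay wholly above the MII oocyte arrays and 4 wholly below, beside 9.14% and 5.27% of all genes. Of the genes above background on all arrays, 0.111% passed. The median over the 46 genes was -0.05, beside 0.0008 over all genes.

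Between the cytoplast and the MII oocyte no Rab gene and no gene at all passed (5 of 46 Rab genes at an unadjusted p under 0.05, beside 4.68% of all genes; 0% of genes after adjustment). Every Rab gene had an adjusted p of 0.926 or more. The differences of the genes called against the SCC were -0.33 (SE 0.18) for Rab11a, -0.4 (SE 0.13) for Rab8b, -0.31 (SE 0.15) for Rab2a, -0.29 (SE 0.1) for Rab21 and -0.06 (SE 0.18) for Rab27a. Rab8b, Rab9 and Rab21 were lower on every cytoplast array than on every MII oocyte array, and Rab19, not above background, was higher (4.5% and 1.68% of all genes lay so). These comparisons share arrays with those above. The median was -0.09 over the 46 Rab genes and -0.06 over all genes.

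The genes that load, switch off, lipidate and read Rab proteins were described alongside. Of 154 with a probe set of their own, 135 passed the filter, and 8 of these were called between the SCC and the cytoplast (5.93%, beside 8.3% of all genes), all higher in the SCC. 6 of the 8 were among the 53 effectors, 1 among 40 exchange factors and 1 among 32 GTPase-activating proteins. None of the 10 genes of prenylation and GDP dissociation passed (3 at an unadjusted p under 0.05, beside 22.3% of all genes). The median log2 difference of the 135 was 0.07.

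Trappc10, a subunit of the TRAPP II exchange factor complex, was at 1671, 2326 and 2141 on the SCC arrays and between 898.4 and 1349 on the cytoplast arrays (1.94-fold, log2 0.95, SE 0.22, adjusted p = 0.0274). Uso1, the p115 tether that binds Rab1 at the Golgi, was 1.57-fold higher (log2 0.65, SE 0.14, adjusted p = 0.0211), and so was Appl1, a Rab5 effector of early endosomes (log2 0.65, SE 0.15, adjusted p = 0.0238). Sytl4, which binds Rab27 on secretory granules, was 1.45-fold higher (log2 0.53, SE 0.13, adjusted p = 0.0336). Acap2, a Rab35 effector, Gcc2, a golgin of the trans-Golgi network, and Pik3r4, a subunit of the endosomal phosphoinositide kinase complex read by an _s_at probe set, were 1.46-fold, 1.42-fold and 1.4-fold higher (adjusted p = 0.0388, 0.0454 and 0.047). Tbc1d8b, a GTPase-activating protein, passed (adjusted p = 0.0285) but was not above background on any array, so no fold is given.

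None of these 8 passed after cyclic loess or quantile normalization, and none without cytoplast replicate 1 or 2 or SCC replicate 2 or 3. The sizes moved unequally: after cyclic loess and quantile normalization Tbc1d8b had log2 differences of 0.97 and 0.91 against 0.97 as deposited, Trappc10 0.68 and 0.63 against 0.95, and Gcc2 0.24 and 0.19 against 0.51. Of the 3 other Appl1 probe sets 2 also passed (log2 0.88 and 1.04), the latter not above background. Gdi2, the GDP dissociation inhibitor that extracts Rab proteins from membranes, was at 2005, 2191 and 1773 on the SCC arrays and 4070, 3046, 2845 and 3227 on the cytoplast arrays. It lay below every cytoplast array without passing on the values as deposited (log2 -0.72, SE 0.23, adjusted p = 0.0863), but it was called under cyclic loess (log2 -1.03, adjusted p = 0.0277) and quantile normalization (log2 -1.0, adjusted p = 0.0345). In all it passed in 6 of 22 alternatives, with an adjusted p of up to 0.525. That value belongs to the brightest Gdi2 probe set left when those of the _x_at kind are set aside (440.8 in the SCC, 546.2 in the cytoplast, log2 -0.28, SE 0.21); the 3 _x_at probe sets, the one used here included, had log2 differences from -0.72 to -0.66. In the MII oocyte Gdi2 ranged from 2303 to 5134.

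**Figure D5:**
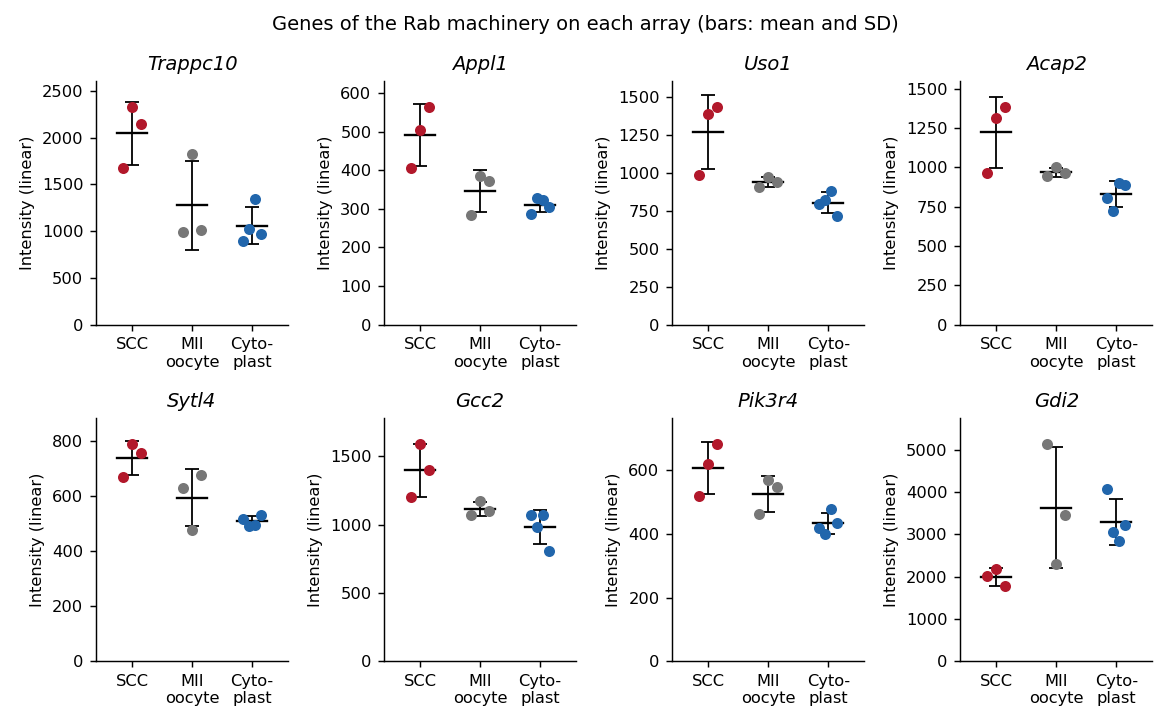
Intensity on a linear scale (vertical axis) on each array for the 7 genes of the Rab machinery that passed the threshold between the SCC and the cytoplast and were above background on all arrays, and for Gdi2, which did not pass on these values. Points are arrays and bars the mean and SD; the SCC points of Gdi2 (1773 to 2191) lie below all cytoplast points (2845 to 4070).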

How the data were processed

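The deposited table held intensity values on a linear scale, which the authors made with RMA per the submitters' processing notes (version and settings not given in the sources used here). The arrays as deposited did not share 1 distribution of intensities: their 95th percentile ran from 525.8 to 797.1. Whether a normalization step was left out is not known. Scanner files were not used here. Of 45101 probe sets, 34945 had 1 gene, 932 several, 9160 none and 64 were controls. Arrays were grouped by their titles, and log2 was taken. 23737 probe sets passed the filter. limma 3.58.1 in R 4.3.3 fitted 1 mean per group over all 10 arrays, with Benjamini-Hochberg adjustment over those probe sets at 0.05. The script was tested on simulated data.

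The Rab genes and the lists were chosen with earlier results of these data known. Values were given for Rab genes called, not overlapping between SCC and cytoplast, or set by name for their role, and for machinery genes called. Gdi2 and the other genes above background were added after their values were seen. All 59 matched the RefSeq gene table by gene ID. Residuals of arrays with the same replicate number correlated at 0.02 on average (-0.304 to 0.614, 8 pairs). The highest were between cytoplast and MII oocyte, 0.614 for replicate 3 and 0.307 for replicate 4. Pairs of unlike number were not set beside these, so the average cannot show whether arrays were paired. Numbers were not taken as pairs. Alternatives covered scaling, filter, pseudocount, probe set, arrays in the fit, moderation, a replicate block, the spike-in controls and single arrays; leaving out _x_at and _s_at probe sets and lower background levels were added after seeing the data.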

Additional observations from a re-analysis of the deposited data

Results flagged for a closer look

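Rab29 in the cytoplast was picked out because 1 array stood apart: it read 26.4 on cytoplast replicate 4 and 20.5 to 20.9 on the other 3, a gap of 0.936 of the group's range; the gap is above the critical value of the Dixon test for 4 arrays. All of these values were below background. Of the 46 Rab genes screened, Rab29 was the only one flagged, and chance flags about 5% of groups.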

How the results depend on the processing

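Rab11a passed between the SCC and the cytoplast in all 22 alternatives, Rab8b in 20, Rab27a in 18, Rab2a in 15 and Rab21 in 14. Setting aside _x_at and _s_at probe sets is among these alternatives. It could not change the calls of Rab11a, Rab8b, Rab27a and Rab21, which are not read by such probe sets. Rab genes called numbered 5, and 2 after cyclic loess, 2 after quantile normalization and 8 with the spike-in level as covariate; leaving out single arrays gave 2 to 8. Machinery genes called numbered 8, and 1, 2 and 17 under the same settings, 4 with trend and robust moderation, and 0 to 12 without single arrays. Probe sets called numbered 1664, and 626, 572 and 3060, and 245 to 2235 without single arrays; 96.1% of the calls were higher in the SCC, 80.7% after cyclic loess and 73.1% after quantile normalization. Against the MII oocyte the Rab count of 0 became 2 with the spike-in covariate (Rab11a and Rab27a) and 0 to 3 without single arrays. With the replicate block it became 1 (Rab11a, adjusted p = 0.0436). The share of all genes that passed against the MII oocyte was not counted under these settings, so these counts cannot be set beside it. The block changed none of the 5 Rab calls between the SCC and the cytoplast, though the numbers were not shown to pair arrays. With a filter at the 75th percentile, 31 Rab genes were left and their median was 0.16 against the cytoplast and 0.0746 against the MII oocyte. Signs turned for genes that had not passed: Rab6a (-0.16 after cyclic loess, -0.0911 after quantile normalization), Rab35 (-0.0296 after quantile normalization), Rab3a (0.0342 without _x_at and _s_at probe sets), and, without 1 array, Rab3a (-0.33 to 0.0054), Rab5c (-0.0074 to 0.1022), Rab8a (-0.18 to 0.015) and Rab11b (-0.13 to 0.0093). Without _x_at and _s_at probe sets Rab2a missed the threshold (log2 0.21, adjusted p = 0.413). Where not stated, the cause of a move was not tested. Genes below background on all arrays, 36 of 59, have no reliable level, and 27 rather than 19 would be above it on all arrays with a background level at the 75th percentile, and 21 at the 90th.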

Other observations

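Some Rab genes with wide spread inside the cytoplast and MII oocyte groups varied with the level of the hybridisation spike-in controls, whose mean log2 was 11.2 on cytoplast replicate 4 and 11.1 and 11.3 on MII oocyte replicates 2 and 4, and 9.87 on MII oocyte replicate 3 and 9.91 on cytoplast replicate 3. Rab2b read 643.7, 493 and 584.2 on the first 3 arrays and 147.7 and 201.9 on the last 2. Rab7 read 2848, 2201 and 2146 on the first 3 and 1163 and 1097 on the last 2. Rab38 went the other way, with 195.8, 191.8 and 198.1 on the first 3 and 529.8 and 472.6 on the last 2. On the SCC arrays, with spike-in levels of 10.0, 10.1 and 11.3 on replicates 1 to 3, Rab7 read 1743, 1975 and 2350, highest where the spike-in level was highest. Rab2b read 225.5, 286.9 and 269.7 there and Rab38 289.2, 209.9 and 217.9. The arrays given are the 3 with the highest and the 2 with the lowest spike-in level of those 7; cytoplast replicates 1 and 2, at 10.7 and 10.3, read 319.3 and 189.8 for Rab2b. These genes and arrays were singled out after their values were seen, and the part of the spike-in level was not tested for them.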
